A study of Homo sapiens with 8 samples.

Results

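Secreted proteins that restrain WNT signalling outside the cell, sclerostin (SOST), SOSTDC1, DKK1, DKK2, DKK3, SFRP1, SFRP2, FRZB and WIF1, were followed by their transcripts from undifferentiated human embryonic stem cells to sorted KDR and CD31 positive cells. The genes were 9 of 19775 with a probe set, and every probe set annotated to exactly 1 of these symbols was used, 22 in all. SOST was picked out because its difference between day 4 and day 0 was among the largest of the series, and the others were added as its functional relatives. Values of day 4 against day 0 are therefore given as a description, with no test.

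The cells were H9, an established human embryonic stem cell line, so all groups share 1 genetic background. Day 0 was the undifferentiated, unsorted culture, from a line maintained on inactivated mouse feeder cells per the labels' protocols. The other groups were differentiated toward blood in StemPro34 serum-free medium with BMP4 and monothioglycerol among its additions, of which the labels as held here give only the first part. They were sorted at day 4, day 6 or day 8 for KDR, which binds vascular endothelial growth factor, and CD31, the adhesion molecule encoded by PECAM1. Values of a group are given with replicate 1 first. Each group had 2 arrays, labelled biological replicates without saying whether they came from separate cultures, so p-values measure only the spread between these arrays. Day and sorting changed together between day 0 and every other group and cannot be told apart. Levels below are log2(intensity + 32), called log2 intensity, and differences are on that scale, which understates those of dim genes.

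WNT ligands bind Frizzled receptors together with the coreceptors LRP5 and LRP6 and so stabilise beta-catenin. Sclerostin, SOSTDC1, DKK1 and DKK2 occupy the LRP coreceptors, whereas SFRP1, SFRP2, FRZB and WIF1 bind WNT proteins themselves. DKK3 belongs to the Dickkopf family by sequence and is its most divergent member. WNT signalling drives mesoderm formation in differentiating embryonic stem cells, and sclerostin is best known as the osteocyte product that limits bone formation.

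Libraries and labels were checked before the members. PECAM1, KDR and CDH5 were higher in every sorted array than at day 0 and NANOG lower, and the first pair is selected by the sort. All 8 endothelial marker genes lay above the array median on both arrays of each sorted group, with a summed intensity of 20682 to 32662 against 827 to 889 at day 0. Undifferentiated markers (5 of 6 measured) summed to 39172 to 40380 at day 0 and to 3607 to 7103 in sorted arrays. NANOG was below the median in all of these. DPPA4 (9.48 to 10.26) and LIN28A (11.45 to 12.50) stayed above the median on every sorted array. L1TD1 lay above it on replicate 1 of each sorted day, and SOX2 on replicate 1 of day 8 (9.31). The 9 stromal and smooth muscle markers summed to 37643 and 37331 in replicates 1 and 2 of day 0. Their sums were 26404 and 15942 in the day 4 arrays, 22184 and 11950 in those of day 6 and 13190 and 13168 in those of day 8, and no marker was below the median on both arrays of a group. At day 4 909 genes and at day 6 1262 genes were over 2-fold apart between the replicates, against 1 at day 0 and 215 at day 8. That count does not say which array of a pair is the odd one, and results are also given with replicate 1 of day 4 and of day 6 left out together. The 3' to 5' signal ratio of GAPDH, a control of RNA integrity, was 1.71 and 1.91 at day 0 and 2.15 to 3.73 in sorted arrays. The same ratio of ACTB was 8.92 and 10.4 on the day 0 arrays and 9.18 to 31.0 on the sorted arrays, highest on replicate 1 of day 6 and next on replicate 1 of day 4 (19.0). The GAPDH ratio thus separated day 0 from the sorted arrays, and the ACTB ratio did not, since replicate 2 of day 4 (9.18) and replicate 1 of day 8 (9.91) lay within its day 0 range.

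SOST was near the bottom of the scale at day 0 and high on every sorted array, from day 4 to day 8. Its only probe set, 223869_at, read a log2 intensity of 5.61 and 5.87 in replicates 1 and 2 of day 0, against an array median of 6.92 to 6.97 on the same scale. The day 4 arrays read 12.74 and 11.32, those of day 6 read 12.76 and 11.26, and those of day 8 read 10.94 and 11.02. No sorted array overlapped with day 0, and the highest values were those of replicate 1 of day 4 and of day 6. At day 4 the mean was 12.03 ± 1.00 (SD, n = 2) against 5.74 ± 0.19 (SD, n = 2), a difference of 6.29 that ranked 7 among rises of the 13647 genes tested. This is the value for which the gene was chosen. In bulk samples fewer cells of a type and less RNA per cell cannot be told apart.

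At day 6 and day 8 SOST was again higher than at day 0. These comparisons share the day 0 arrays with the contrast in which the gene was noticed, and it was chosen with results of all days known. The rise was 6.27 ± 0.58 (SE) at day 6, or 77.3-fold (limma adjusted p = 0.000536), and 5.24 ± 0.58 (SE) at day 8, or 37.8-fold (limma adjusted p = 0.00113). Without replicate 1 of day 4 and of day 6 the day 6 rise was 5.52 (limma adjusted p = 7.62e-05), in a range over all alternatives of 4.82 to 7.54 and of adjusted p from 7.62e-05 to 0.0118. At day 8 the alternatives spanned 3.82 to 6.49, with adjusted p from 3.16e-05 to 0.0196. Because SOST lay below the median at day 0, its fold depends on the offset of 32.

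Both day 8 arrays lay below all 4 arrays of day 4 and day 6 for SOST, and this step did not pass the test. Day 8 minus day 6 was -1.03 with a 95% interval of -2.42 to 0.36 (limma adjusted p = 0.955), and day 8 minus day 4 was -1.05 with an interval of -2.44 to 0.34 (limma adjusted p = 0.724). Without replicate 1 of day 4 and of day 6 the differences were -0.28 and -0.34. Of these comparisons only that of day 8 with day 6 used no array of the contrast in which the gene was noticed. Day 6 and day 4 differed by -0.02, with an interval of -1.41 to 1.37. Blood marker sums were 526 and 540 on the day 4 arrays, 489 and 4732 on those of day 6 and 10713 and 7350 on those of day 8, and endoderm sums 3091 and 20881, 731 and 6595, and 12770 and 9576. Their part in the lower day 8 level was not tested.

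**Figure D1:**
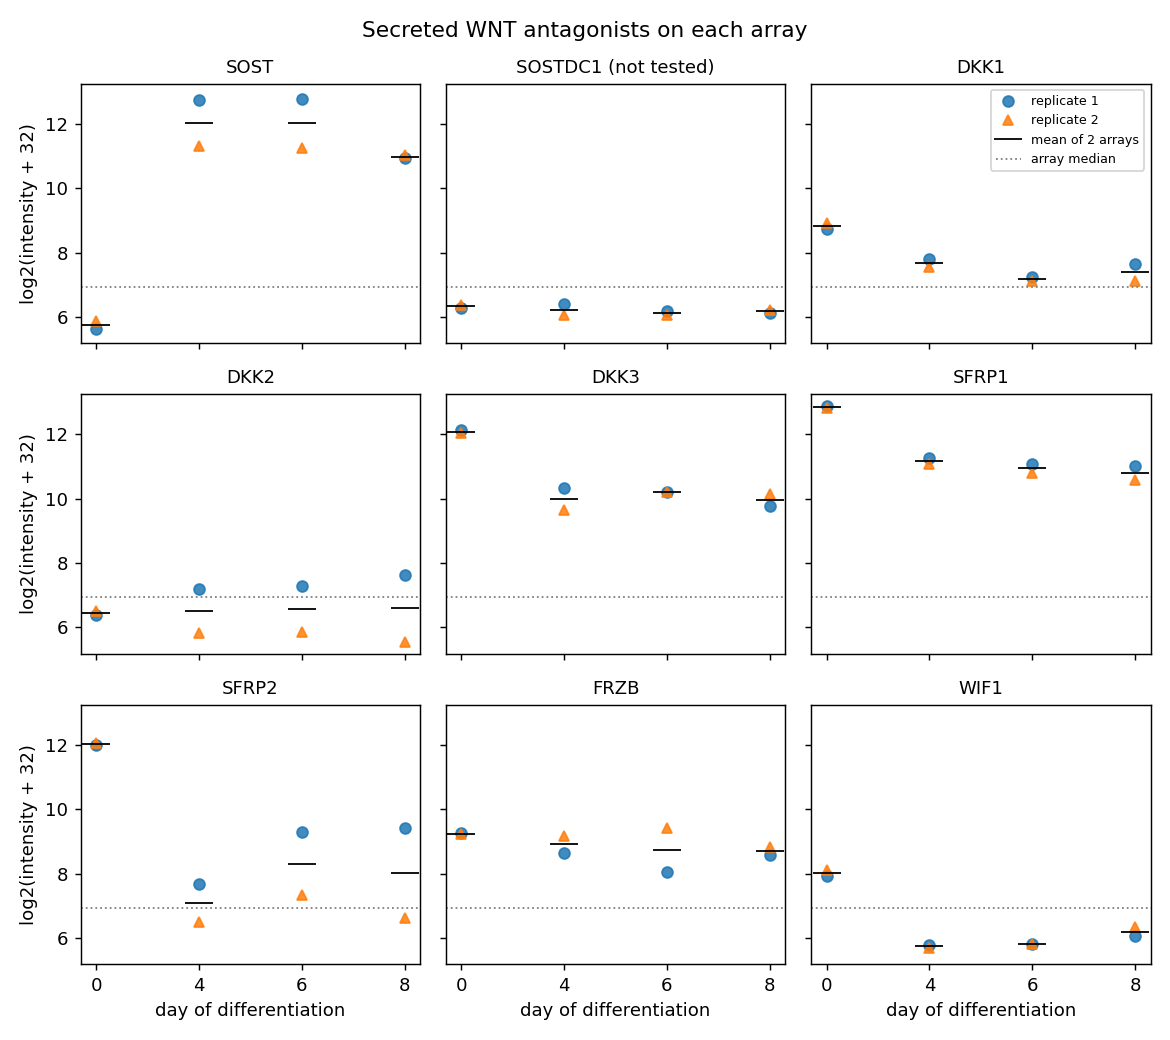
Log2(intensity + 32) on the y axis by day of differentiation on the x axis, for the brightest probe set of each of the 9 genes. Circles are replicate 1, triangles replicate 2, black bars the mean of 2 arrays and the dotted line the mean array median; SOST lies at 5.61 and 5.87 at day 0 and between 10.94 and 12.76 in the sorted arrays, while SFRP2 starts at 11.98 and 12.07 and lies between 6.49 and 9.43.

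Outside these cells SOST is best known as a transcript of bone. Of 9 bone and osteocyte markers 8 had a probe set, and none was above the array median on both arrays of any sorted group. RUNX2 and SP7, the transcription factors of osteoblasts, DMP1 and PHEX of osteocytes lay below the median on all 8 arrays, and MEPE on all 6 sorted arrays. IBSP was above it on replicate 1 of day 6 (7.01) and FGF23 on replicate 2 of day 6 (7.16). SPP1 was above it on replicate 1 of day 6 (7.94) and of day 8 (7.54). SPP1, or osteopontin, the only gene of this list that was tested, fell, with log2 changes of -2.89 at day 6 and -3.31 at day 8. MEF2C, a factor known to act on a distant SOST enhancer in bone, was at 7.57 and 7.54 at day 0 and between 12.14 and 12.56 on the sorted arrays. It rose by 4.80 ± 0.20 (SE) at day 6 and 4.86 ± 0.20 (SE) at day 8 (limma adjusted p = 1.62e-05 and 1.49e-05). MEF2A and MEF2D rose too, by 1.47 ± 0.23 and 1.07 ± 0.16 (SE) at day 6 and by 1.38 ± 0.23 and 0.94 ± 0.16 (SE) at day 8, so that 3 of 3 MEF2 genes tested, of 4 listed, rose, where 9.73% of all genes tested rose at day 6 and 10.4% at day 8. The calls of MEF2A and MEF2D were lost without either day 0 array, and that of MEF2A at day 8 also without replicate 2 of day 8. With a minimum log2 change of 1 MEF2D was not called at day 8. The MEF2 list was chosen with earlier results of these data known, and these genes share the arrays with SOST. The part of MEF2 factors in the level of SOST was not tested.

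The 5 genes whose pattern over the 8 arrays was nearest to that of SOST were SAMSN1, TAL1, FLI1, HOPX and ERG. After each gene was centred on its own mean, SAMSN1, an adaptor of blood cell signalling, differed from SOST by a root mean square of 0.31 on the log2 scale. It read 5.62 and 5.64 on the day 0 arrays, 12.11 and 11.47 on those of day 4, 11.99 and 11.05 on those of day 6 and 10.33 and 10.60 on those of day 8. SAMSN1 thus shared with SOST the higher replicate 1 at day 4 and day 6 and the lower day 8 level, as follows from how it was picked. Replicate 1 was the higher at these 2 days in TAL1, FLI1, HOPX and ERG too. The root mean square was 0.52 for TAL1, a factor required for blood formation, and 0.59 for the homeodomain-only protein HOPX. It was 0.53 for FLI1 and 0.61 for ERG, ETS factors of endothelium and blood. The order is a description over 13646 other genes measured on the same 8 arrays. None of the 5 stayed among the nearest without replicate 1 of day 4 and of day 6, or with the mean of all probe sets of each gene.

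**Figure D2:**
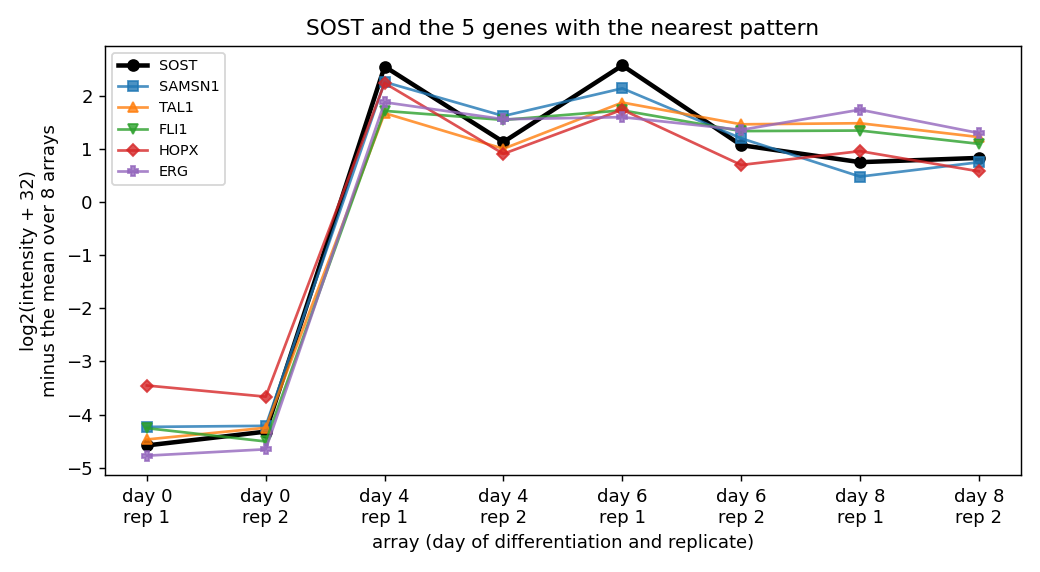
Log2(intensity + 32) minus the average of the same gene on all 8 arrays (y axis) on each array in order of day and replicate (x axis), for SOST (black) and the 5 genes with the smallest root mean square difference from it. SAMSN1, at 0.31, follows SOST most closely, including the higher replicate 1 at day 4 and day 6; lines only join the arrays of a gene.

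The RefSeq promoter table (GRCh38.p14) held 5 of the 9 genes, SOST, DKK1, SFRP2, FRZB and WIF1. The bases just before the annotated gene start are shown for the gene with the largest rise, the gene with the largest fall and DKK1, the member known to be induced by WNT signalling, 250 bases each, 5′ to 3′ on the strand of the gene, at chr17:43758792-43759041 (minus), chr4:153789084-153789333 (minus) and chr10:52314031-52314280 (plus). Capitals mark GGAA on either strand, the core bound by ETS factors such as ERG and FLI1.
SOST: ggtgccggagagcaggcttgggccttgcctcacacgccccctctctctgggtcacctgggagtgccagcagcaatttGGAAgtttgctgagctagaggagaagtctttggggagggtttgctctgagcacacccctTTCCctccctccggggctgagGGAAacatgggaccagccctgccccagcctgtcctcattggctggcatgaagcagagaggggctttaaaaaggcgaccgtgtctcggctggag
SFRP2: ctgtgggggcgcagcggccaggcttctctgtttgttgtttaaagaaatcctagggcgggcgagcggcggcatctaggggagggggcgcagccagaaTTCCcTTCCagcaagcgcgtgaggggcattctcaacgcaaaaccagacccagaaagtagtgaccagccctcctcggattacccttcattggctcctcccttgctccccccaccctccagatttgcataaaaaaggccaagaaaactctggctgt
DKK1: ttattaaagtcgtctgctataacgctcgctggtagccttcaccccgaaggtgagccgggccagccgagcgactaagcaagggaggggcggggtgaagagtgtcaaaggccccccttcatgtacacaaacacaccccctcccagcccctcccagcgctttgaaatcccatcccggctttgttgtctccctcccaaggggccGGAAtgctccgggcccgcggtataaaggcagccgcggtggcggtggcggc
GGAA was found 3 times before SOST, 2 times before SFRP2 and 1 time before DKK1. It was found 6 times before FRZB and 1 time before WIF1, and 92.7% of 35116 promoter windows of this length held it. The SOST window also held 1 CCAAT box (either strand searched), 57 bases before the gene start, as 32% of windows did, and so did that of SFRP2 (68 bases) and that of FRZB (68 bases). The SOST window had 1 E-box (CANNTG), as 61.8% of windows did. Of the 5 windows DKK1 alone had a TATAAA, 30 bases before its start, found in 10.7% of windows on either strand. The motifs do not overlap one another in the 3 windows shown, and a match describes letters, not a bound site.

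SOSTDC1, which shares the cystine knot of sclerostin and binds both LRP coreceptors and BMPs, stayed at the level of dim probe sets. Its only probe set read 6.29 and 6.38 on the day 0 arrays, 6.39 and 6.06 on those of day 4, 6.19 and 6.06 on those of day 6 and 6.12 and 6.23 on those of day 8. All 8 values lay below the array median, so it was not tested. Its relatives of the DAN family were measured by 4 of 5 genes, of which 2 were tested. GREM1, gremlin, an antagonist of BMPs, fell by 4.54 at day 6 and by 4.98 at day 8 (limma adjusted p = 0.0049 and 0.00332), and NBL1 differed at day 8 by -0.11 (limma adjusted p = 0.626). The rise of SOST and the fall of GREM1 thus ran in opposite directions within this family.

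Against day 0, 6 of the 9 antagonists (8 tested) passed the test at day 6, of which 1 rose and 5 fell. The count was also 6 at day 8, with 1 that rose and 5 that fell. Over all 13647 genes tested 23.4% passed at day 6 (9.73% rose and 13.6% fell) and 24.5% at day 8 (10.4% rose and 14.1% fell). The median change of the 8 antagonists tested was -1.75 at day 6 and -1.63 at day 8, against -0.03 over all genes tested in each. Past 2-fold at day 4 were 1 higher and 5 lower, against 7.3% of all genes higher, 7.99% lower and 15.3% in either direction, in the contrast that drew attention to SOST. The 3 comparisons share the day 0 arrays. SOST and WIF1 entered the test only through the groups in which they are high, and DKK2 only through 3 sorted arrays, so these counts are no support for a shared direction. The undifferentiated and stromal marker sums were lower and the GAPDH ratio higher in all sorted arrays, and their part in the falls was not tested. Replicate 2 of day 4 and replicate 1 of day 8, with an ACTB ratio in the range of day 0, showed the falls too. Their GAPDH ratios, 2.15 and 2.41, lay above those of day 0, so these arrays do not separate RNA integrity from day and sorting.

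**Figure D3:**
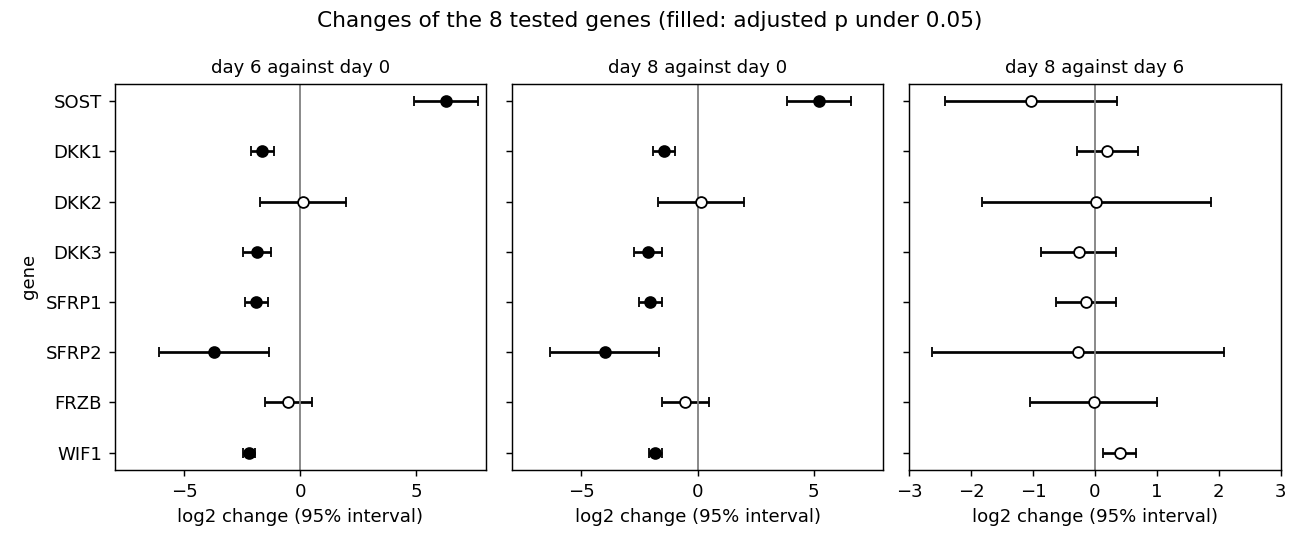
Log2 change (x axis) with its 95% interval from the limma fit for the 8 tested genes (y axis) in 3 comparisons, with filled points where the adjusted p is under 0.05. SOST is the only gene to the right of 0 against day 0 among those filled, 5 genes lie to the left, and no point is filled for day 8 against day 6; the third panel has a narrower axis.

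DKK1, a secreted ligand of LRP6 that is itself induced by WNT signalling, was lower in sorted cells. It read 8.72 and 8.92 on the day 0 arrays, 7.80 and 7.54 on those of day 4, 7.23 and 7.12 on those of day 6 and 7.65 and 7.11 on those of day 8. No sorted array reached the level of day 0, and no array fell below the median. It fell by 1.64 ± 0.21 (SE) at day 6 and by 1.44 ± 0.21 (SE) at day 8, or 3.12-fold and 2.72-fold (limma adjusted p = 0.00203 and 0.00353).

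DKK3 was lower by 3 of its 6 probe sets and dim by the other 3. The brightest, 214247_s_at, read 12.12 and 12.04 on the day 0 arrays, 10.32 and 9.66 on those of day 4, 10.21 and 10.21 on those of day 6 and 9.76 and 10.14 on those of day 8. It fell by 1.87 ± 0.26 (SE) at day 6 and by 2.13 ± 0.26 (SE) at day 8 (limma adjusted p = 0.00287 and 0.00164). In the fit of every probe set, 230508_at fell by 1.36 and 1.43 and 202196_s_at by 2.51 and 2.30. Of the other 3, 221127_s_at was at 6.96 and 6.81 at day 0 and at 6.08 to 6.57 in sorted arrays, and 207875_at and 221126_at stayed between 5.46 and 5.63 on all arrays.

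DKK2 did not pass the test on any day and was split by replicate in the sorted cells. Its brighter probe set, 219908_at, read 6.39 and 6.50 on the day 0 arrays, 7.19 and 5.82 on those of day 4, 7.28 and 5.86 on those of day 6 and 7.64 and 5.55 on those of day 8. Replicate 1 was thus above the median and replicate 2 below it in each sorted group, with differences of 1.36, 1.42 and 2.09. Against day 0 the mean differed by 0.13 at day 6 and 0.15 at day 8, with 95% intervals of -1.73 to 1.98 and -1.70 to 2.00 (limma adjusted p = 0.929 and 0.916). Its second probe set, 224199_at, stayed between 5.58 and 5.91.

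SFRP1, a secreted protein with the cysteine-rich domain of Frizzled receptors, was lower in sorted cells by 3 of 4 probe sets. The brightest, 202037_s_at, read 12.88 and 12.81 on the day 0 arrays, 11.27 and 11.09 on those of day 4, 11.08 and 10.80 on those of day 6 and 11.02 and 10.59 on those of day 8. It fell by 1.90 ± 0.21 (SE) at day 6 and by 2.04 ± 0.21 (SE) at day 8, or 3.73-fold and 4.10-fold (limma adjusted p = 0.000998 and 0.000741). SFRP1 remained well above the array median in every sorted array. The second, 202036_s_at, fell by 1.66 and 1.83, and the third, 202035_s_at, by 2.75 and 2.42, with replicates at day 4 of 7.08 and 8.77. The fourth, 228413_s_at, lay below the median on every array.

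SFRP2, a close relative of SFRP1, fell the furthest among the antagonists and split by replicate in the sorted cells. Its brighter probe set, 223122_s_at, read 11.98 and 12.07 on the day 0 arrays, 7.69 and 6.49 on those of day 4, 9.29 and 7.32 on those of day 6 and 9.43 and 6.63 on those of day 8. Every sorted array lay below day 0, and replicate 1 lay above replicate 2 by 1.20, 1.97 and 2.80. The other probe set, 223121_s_at, kept the same order, with 9.98 and 10.07 at day 0 and replicate differences of 0.37, 0.88 and 0.94. SFRP2 fell by 3.72 ± 0.99 (SE) at day 6 and by 3.99 ± 0.99 (SE) at day 8, or 13.1-fold and 15.9-fold (limma adjusted p = 0.0371 and 0.0279). Leaving out replicate 2 of day 6 gave -2.73 at day 6, and leaving out replicate 1 gave -4.70. At day 8 the change was -2.59 without replicate 2 of day 8 and -5.39 without replicate 1. The call was lost without either day 0 array, without replicate 2 of day 6 for day 6 and without replicate 2 of day 8 for day 8. The adjusted p reached 0.179 at day 6 and 0.147 at day 8 in these fits, in ranges over all alternatives that began at 0.00542 and 0.00396. The dimmer probe set fell by 3.10 ± 0.38 and 3.37 ± 0.38 (SE) in the fit of every probe set (limma adjusted p = 0.00229 and 0.0016).

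DKK2 and SFRP2 were the 2 antagonists with replicate 1 over 2-fold above replicate 2 at day 4, day 6 and day 8, which held for 22 of 13647 genes, or 0.161%. This count was made after their values were seen. DKK2 was above the median only on replicate 1 of day 4, day 6 and day 8. It thus entered the test only through the arrays that make this pattern, so the share does not measure how rare the pattern is. The labels give the replicate number and do not say that it marks a shared culture. Stromal marker sums were higher in replicate 1 at day 4 and day 6 and nearly equal at day 8. Single stromal markers differed in both directions at day 8, such as LUM (9.93 and 9.24) and COL1A2 (11.22 and 11.93). Undifferentiated marker sums were 5296 and 7103 in the day 4 arrays, 5064 and 4100 in those of day 6 and 5058 and 3607 in those of day 8. Single markers differed from their sum. SOX2 was higher in replicate 1 on each sorted day (6.91 and 5.83, 6.90 and 6.39, and 9.31 and 6.14), as was L1TD1. LIN28A and DPPA4 were higher in replicate 2 at day 4, and NANOG at day 6 and day 8. Cardiac mesoderm markers (4 of 5 measured) summed higher in replicate 1 on each sorted day, to 1274 and 565, 1048 and 437, and 528 and 508. Endoderm sums (8 markers measured) were lower in replicate 1 at day 4 and day 6 and higher at day 8, and blood sums (5 of 7 measured) were lower in it at day 4 and day 6 and higher at day 8. The part of these cells in the differences was not tested.

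FRZB, also called SFRP3, did not pass the test. The brighter probe set, 203698_s_at, read 9.26 and 9.22 on the day 0 arrays, 8.63 and 9.18 on those of day 4, 8.04 and 9.42 on those of day 6 and 8.59 and 8.84 on those of day 8. The lowest of these was replicate 1 of day 6, and its partner was the highest. Differences from day 0 were -0.51 at day 6, with a 95% interval of -1.54 to 0.52, and -0.52 at day 8, with an interval of -1.55 to 0.51 (limma adjusted p = 0.458 and 0.42). Without replicate 2 of day 6 the day 6 difference was -1.20 and passed (adjusted p = 0.0292, in a range of 0.0292 to 0.717), while leaving out replicate 1 of that day gave 0.18. The day 8 difference of -0.52 passed as well when replicate 1 of both day 4 and day 6 was left out, or with only the arrays compared (adjusted p = 0.0231 and 0.023, in a range of 0.023 to 0.689). The second probe set, 203697_at, differed by -0.86 and -0.77 and did not pass, and the 2 others were dim.

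WIF1, whose WIF domain binds WNT proteins, was above the median at day 0 and below it in every sorted array. It read 7.92 and 8.12 on the day 0 arrays, 5.79 and 5.68 on those of day 4, 5.80 and 5.81 on those of day 6 and 6.07 and 6.33 on those of day 8. It fell by 2.21 ± 0.11 (SE) at day 6 and by 1.82 ± 0.11 (SE) at day 8 (limma adjusted p = 3.83e-05 and 9.59e-05). Without either day 0 array it was above the median on too few arrays to be tested. Day 8 lay above day 6 by 0.40 ± 0.11 (SE) and above day 4 by 0.47 ± 0.11 (SE), with no overlap, and neither difference passed after adjustment (limma adjusted p = 0.955 and 0.724).

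**Figure D4:**
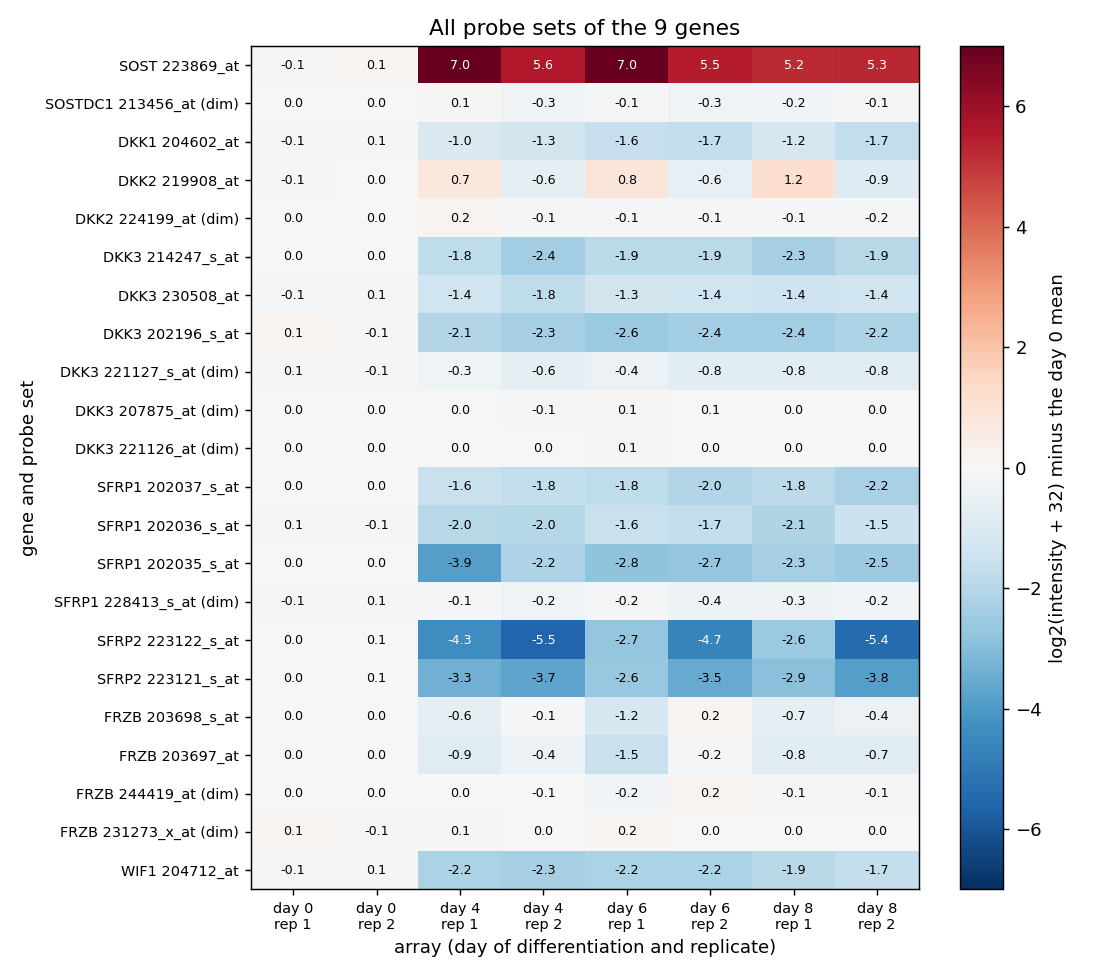
Log2(intensity + 32) minus the day 0 mean of each probe set (colour and printed value) for all 22 probe sets (y axis) on the 8 arrays (x axis); "dim" marks the 8 probe sets that were not tested. Bright probe sets of DKK3, SFRP1 and SFRP2 are blue on all sorted arrays, SOST is red, and DKK2 changes colour between replicates.

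In the fit of every probe set, 14 of the 22 were tested, and 11 of these passed at day 6 and 11 at day 8 against day 0. The other 3 were 1 of DKK2 and 2 of FRZB. Over all 24898 probe sets tested 20.1% passed at day 6 and 21% at day 8. Several of those that passed measure the same gene, and the limits given for SOST and WIF1 hold here too. These counts thus add no support to those per gene.

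Between the sorted days no antagonist passed limma at an adjusted p under 0.05, and neither did any of the 13647 genes. The percentage called was 0 for day 6 against day 4, day 8 against day 4 and day 8 against day 6. Before adjustment 722 genes (5.29%), 887 genes (6.5%) and 338 genes (2.48%) had a p under 0.05 in these comparisons, and among the antagonists 0, 1 and 1, in each case WIF1. The largest mean differences among antagonists between sorted days were those of SFRP2 from day 4 to day 6, of 1.22 with an interval of -1.13 to 3.57, and of SOST given above.

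Other genes of the pathway, from lists chosen for their function, moved in both directions between day 0 and the sorted groups. Of 9 Frizzled receptors tested (of 10 listed) 2 rose and 3 fell at day 6, and 2 rose and 3 fell at day 8. The counts of these lists stand beside the 23.4% and 24.5% of all genes tested that passed at day 6 and day 8. FZD5 fell by 3.72 ± 0.35 and 4.16 ± 0.35 (SE), FZD7 by 2.38 ± 0.53 and 3.10 ± 0.53, and FZD3 by 1.34 ± 0.29 at each of the days. FZD4, the receptor of norrin and of retinal vessel growth, rose by 1.99 ± 0.32 at each, and FZD10, named after its values were seen, by 3.0 ± 0.75 and 3.10 ± 0.75. None of the 4 tested LRP and Kremen receptors, through which sclerostin and DKK proteins act, passed limma, and 0 had an unadjusted p under 0.05 at either day. LRP4, a partner of sclerostin, differed at day 8 by 0.85 ± 0.38 (SE) and LRP6 by -0.01 ± 0.26 (limma adjusted p = 0.146 and 0.977). LRP5 was too dim to test.

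Of 6 WNT ligands tested, of 19 listed, 1 rose and 1 fell at each of the 2 days. WNT11 rose by 1.24 ± 0.13 (SE) at day 6 and 0.60 ± 0.13 at day 8, and WNT5A, a ligand that often acts without beta-catenin, fell by 1.83 ± 0.47 and 1.64 ± 0.47. Of 5 other extracellular antagonists tested, of 8 listed, IGFBP4 rose and DRAXIN fell. IGFBP4, a binding protein of insulin-like growth factors that also blocks LRP6, went from 7.65 and 7.48 at day 0 to between 9.95 and 10.96 in sorted arrays, a rise of 2.72 ± 0.26 (SE) at day 6 and 3.17 ± 0.26 at day 8. Among 7 genes of the R-spondin arm ZNRF3, an enzyme that removes Frizzled receptors, fell by 1.5 ± 0.28 and 1.14 ± 0.28 (SE). LGR4 and RSPO3 fell at day 6, by 1.16 and 1.20.

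Of 10 WNT target and feedback genes tested, of 12 listed, 1 rose and 1 fell at each day, a share near that over all genes. AXIN2, the feedback inhibitor used as a readout of beta-catenin, read 10.61 and 10.49 at day 0, and lay between 8.18 and 9.55 in sorted arrays. It fell by 1.76 ± 0.44 (SE) at day 6 and 1.69 ± 0.44 at day 8 (limma adjusted p = 0.0294 and 0.0335). With the mean of all its probe sets the changes were -0.35 and -0.32 and did not pass (adjusted p = 0.0754 and 0.09). LEF1, a partner of beta-catenin, rose by 1.49 ± 0.38 and 1.88 ± 0.38 (SE). The other 8 did not pass, among them MYC at -0.24 ± 0.29 and CCND1 at -0.19 ± 0.31 (SE) at day 8. The median changes of these lists at day 8 were -0.13 for Frizzled receptors, 0.06 for ligands, 0.29 for other antagonists, 0.04 for LRP and Kremen receptors, -0.28 for the R-spondin arm and -0.18 for targets, against -0.03 over all genes tested.

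**Figure D5:**
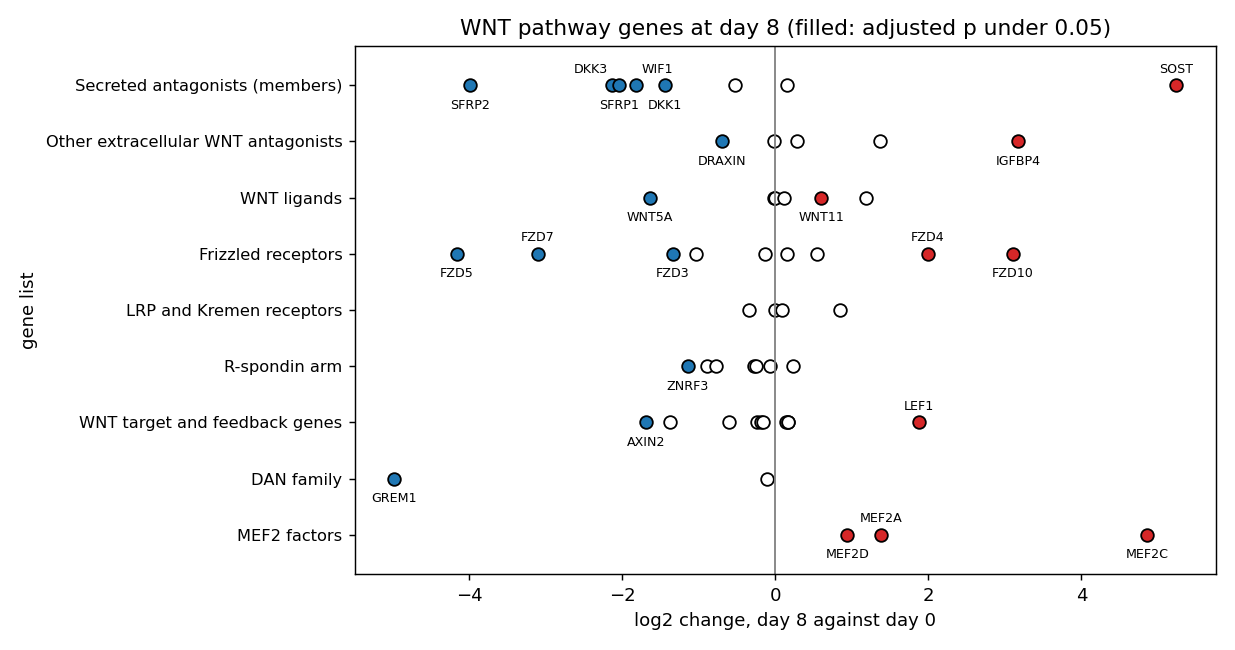
Log2 change of day 8 against day 0 (x axis) for the tested genes of each list (y axis), red where a gene rose and blue where it fell at an adjusted p under 0.05, open where it did not pass. Filled points lie on both sides of 0 for the antagonists, the Frizzled receptors, the ligands and the targets, and on neither side for LRP and Kremen receptors.

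The calls of IGFBP4, FZD5, GREM1 and MEF2C at both days, and of WNT11 at day 6, held under every alternative run. Each other call of these lists was lost without either day 0 array in turn. Calls at day 6 were also lost without replicate 2 of day 6 for DRAXIN, WNT5A, FZD3, FZD7, LGR4, RSPO3 and AXIN2, and without its replicate 1 for LEF1 and FZD10. The DRAXIN call at day 6 was lost without either day 4 array, and at day 8 without replicate 2 of day 4. The WNT5A call at day 6 was lost without either day 8 array. Calls at day 8 were lost without replicate 2 of day 8 for DRAXIN, WNT11, WNT5A, FZD3, FZD7, ZNRF3 and AXIN2, and without its replicate 1 for WNT11, WNT5A, LEF1 and FZD10. LGR4, not called at day 8 (adjusted p = 0.0565), passed without either day 6 array (adjusted p = 0.0224 and 0.0228).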

How the data were processed

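Values are the intensities the authors deposited, linear and made with MAS5 per the submitters' processing notes; its version, scaling and background steps are not given in the sources used here. Detection calls were not used. Group and replicate number were read from each title (3 later samples carry a day 4 source name, against title, description and stage). The transform was log2(intensity + 32), without further scaling. Of 54675 probe sets 41091 had 1 symbol in the platform annotation. The brightest probe set by mean stood for a gene, with _x_at sets last. A gene was tested if above the median of the array on 2 or more arrays (13647 of 19775). limma 3.58.1 (R 4.3.3) fitted 1 model to the 8 arrays, a term per group, with trended eBayes, two-sided p, Benjamini-Hochberg over the 13647 genes and a threshold of 0.05. The script was tested on simulated data. Members and lists were chosen with earlier results of these data known. Named genes were the members, at most 4 called genes per list and comparison by adjusted p, the label checks and the nearest patterns. Nearness was the root mean square difference of centred values. Alternatives varied the offset, filter, normalization, probe set, fit and arrays. Protein sequences were not used here. The number of arrays limits the precision.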

Additional observations from a re-analysis of the deposited data

How the results depend on the processing

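With 2 arrays per group the counts rest on few degrees of freedom (4 residual). The number of antagonists past the threshold, 6 at day 6 and 6 at day 8 against day 0, was 5 to 7 under the alternatives that keep all arrays or leave out replicate 1 of day 4 and of day 6 together. Leaving out single arrays gave 4 to 6 at day 6 and 4 to 6 at day 8, the lowest without either day 0 array, where WIF1 no longer passed the filter and SFRP2 the test. SOST, DKK1, DKK3 and SFRP1 kept their calls in every alternative run. The alternatives reuse the same arrays, and SOST was chosen for its value in them, so its kept call is no independent support. An offset of 1 ended the SFRP2 call at day 6 (adjusted p = 0.0529). Past 2-fold at day 4 were 5 or 6 throughout. Among pathway genes, the mean of all probe sets ended the AXIN2 calls and that of LGR4 at day 6 (-0.33, adjusted p = 0.138), and an offset of 1, no filter or every probe set on its own ended that of WNT5A at day 8 (adjusted p = 0.0531, 0.0533 and 0.0516). A minimum log2 change of 1 ended those of DRAXIN at both days and of WNT11 and MEF2D at day 8. LGR4 at day 8 passed with the 75th percentile filter (0.0471), quantile normalization (0.0451), only the arrays compared (0.00982) and with replicate 1 left out at both day 4 and day 6 (0.00973). WNT5A and LGR4 at day 6 also failed with only the arrays compared. Among sorted days the number was 0 in all alternatives. With a replicate block, 6 antagonists passed at day 6 and 6 at day 8, with SOST at an adjusted p of 0.000237 and 0.00048, and the block changed no call of an antagonist, though LGR4 passed at day 8 (adjusted p = 0.0163). Same-numbered deviations correlated across genes at 0.60, 0.19 and 0.41 among sorted groups and at -0.02 to 0.02 with day 0, a hint from the data that the numbers may mark shared sets among sorted days. The labels do not tie them and there are only 2 numbers, so the fit without the block was kept. With it, too, the count between sorted days was 0. The nearest patterns of SOST held 4 or 5 of the 5 genes in alternatives other than the 2 named above.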

Other observations

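The genes nearest in pattern to SFRP2 over the 8 arrays were NELL2, SPP1 and PTPRZ1, with root mean square differences of 0.56, 0.56 and 0.63 on the log2 scale after centring. PTPRZ1, a receptor phosphatase of neural cells, read 12.30 and 12.22 on the day 0 arrays, 7.49 and 6.43 on those of day 4, 7.90 and 6.12 on those of day 6 and 8.29 and 5.84 on those of day 8. As for SFRP2, replicate 1 was the higher in each sorted group. SPP1, which encodes osteopontin, read 10.07 and 9.99 at day 0 and 7.54 and 5.91 at day 8. None of the 3 stayed among the nearest without replicate 1 of day 6. The genes nearest to DKK1 were SYNDIG1, PIGL and SLAIN1, at 0.09, 0.11 and 0.11, and with the larger offset tried none of these 3 stayed. These are descriptions over arrays that the genes share.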
